A study of Homo sapiens with 4 samples.

Results

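The MAP kinase genes and the dual-specificity phosphatase genes, some of which oppose them, were followed in 2 liver cancer cell lines before and after sonodynamic therapy (SDT). A gene was a member when it was protein-coding and its whole symbol was MAPK, MAP2K, MAP3K, MAP4K or DUSP followed by digits. The rule gave 67 members among 19951 protein-coding genes: 13 MAPK, 7 MAP2K, 18 MAP3K, 5 MAP4K and 24 DUSP genes. HepG2 and Huh7 are established human lines labelled as hepatocellular carcinoma. Group A was HepG2 cells and group C was Huh7 cells, both without a treatment in the labels. Groups B and D were the same lines after SDT with targeted nanobubbles. In the study's methods the nanobubbles held the gas C3F8, the sonosensitizer hematoporphyrin monomethyl ether (HMME) and lonidamine (LND), an inhibitor of tumor energy metabolism, and the cells received low-frequency ultrasound. The bubbles, HMME, LND and the ultrasound were given together, so their parts cannot be told apart. Ribosomal RNA was depleted from total RNA and 1 library was sequenced for each of the 4 groups.

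The deposited tables hold the results of gene set analyses, for group B vs. A (HepG2) and group D vs. C (Huh7). Each row is a Gene Ontology (GO) term or a KEGG pathway, with the identifiers of the mRNAs that the authors called differentially expressed at an adjusted p-value under 0.05. A gene is termed listed below when its identifier stands in any row of the GO table of that comparison. The tables give neither the direction nor the size of a change, and no read depth, so each result is a count of genes without replicate error, and no test was made. A gene that was not listed may have been unchanged, too low to test, or without a GO annotation, and these cannot be told apart. Expression of liver cell markers, and so the labelled cell types, could not be checked from these values.

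A MAP kinase cascade relays a signal through tiers of kinases: a MAP4K or a small GTPase acts on a MAP3K, the MAP3K on a MAP2K, and the MAP2K phosphorylates a MAP kinase on a threonine and a tyrosine. The ERK arm answers mainly to growth factors, and the JNK and p38 arms mainly to stress such as reactive oxygen species and to cytokines. Among the dual-specificity phosphatases (DUSPs), the MAP kinase phosphatases (MKPs) remove phosphate from both residues. Several MKPs are immediate early genes that are transcribed soon after a cascade is activated and then switch it off. In hepatocytes these arms take part in proliferation, regeneration and the response to injury.

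The HepG2 list held 15 of the 67 members (22.4%) and the Huh7 list held 13 (19.4%). The same lists held 4768 (23.9%) and 4360 (21.9%) of all 19951 genes, so the members as a whole stood close to the background in both lines. Over the 22148 background genes of the GO tables the listed shares were 21.6% and 19.7%. Both lines shared 8 members (11.9%), compared with 11.4% of all protein-coding genes. The 8 shared members were 53.3% of the HepG2 members listed and 61.5% of the Huh7 members listed; over all genes these shares were 47.7% and 52.2%. In total 20 members (29.9%) were listed in at least 1 line, beside 34.3% of all protein-coding genes. The remaining 47 stood in neither list.

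**Figure D1:**
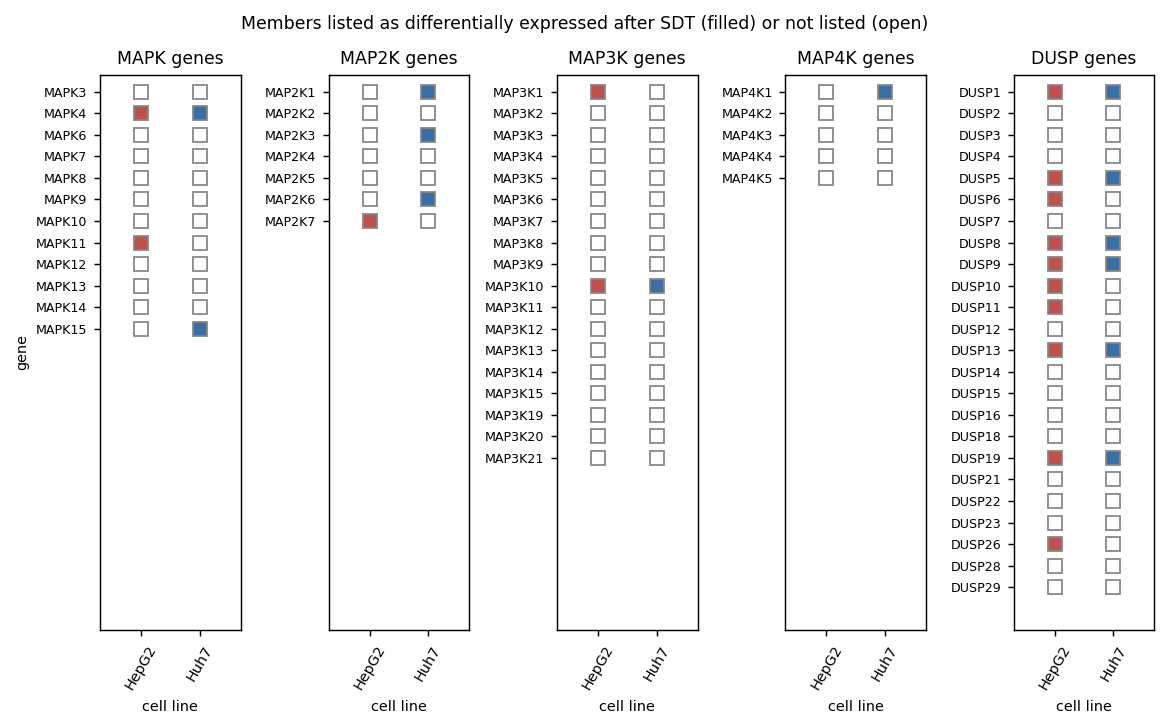
Each row of squares is a member gene (1 MAPK gene is not shown), in panels for the 5 classes, and the columns are the cell lines; a filled square is a gene listed as differentially expressed after SDT and an open square a gene not listed. Filled squares in both columns are found for MAPK4, MAP3K10 and 6 DUSP genes.

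The classes differed in their counts. The DUSP genes accounted for 10 of the 15 members listed in HepG2 cells (41.7% of 24 DUSP genes) and for 6 of the 13 listed in Huh7 cells (25%). Each of the 6 DUSP genes of Huh7 cells was also listed in HepG2 cells. The 43 kinase genes contributed 5 genes (11.6%) to the HepG2 list and 7 (16.3%) to the Huh7 list, with 2 shared. Over all protein-coding genes the listed shares were 23.9% in HepG2 and 21.9% in Huh7 cells, so the DUSP share in Huh7 cells was near the background. The counts in HepG2 and Huh7 cells were not tested against each other.

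Of the 7 MAP2K genes, 1 (14.3%) was listed for HepG2 and 3 (42.9%) for Huh7. None stood on both lists, beside 11.4% of all protein-coding genes, and lists this short leave little room for a shared gene. The larger MAP3K tier was sparsely represented, with 2 of 18 (11.1%) and 1 of 18 (5.56%). Among the DUSP genes, the MKPs (DUSP1, DUSP2, DUSP4, DUSP5, DUSP6, DUSP7, DUSP8, DUSP9, DUSP10 and DUSP16) had 6 of their 10 genes (60%) on the HepG2 list and 4 (40%) on the Huh7 list. The other 14 DUSP genes held 4 (28.6%) and 2 (14.3%). Beside these class shares stand 23.9% and 21.9% of all protein-coding genes. These classes hold few genes, and a change of 1 gene moves a share widely.

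**Figure D2:**
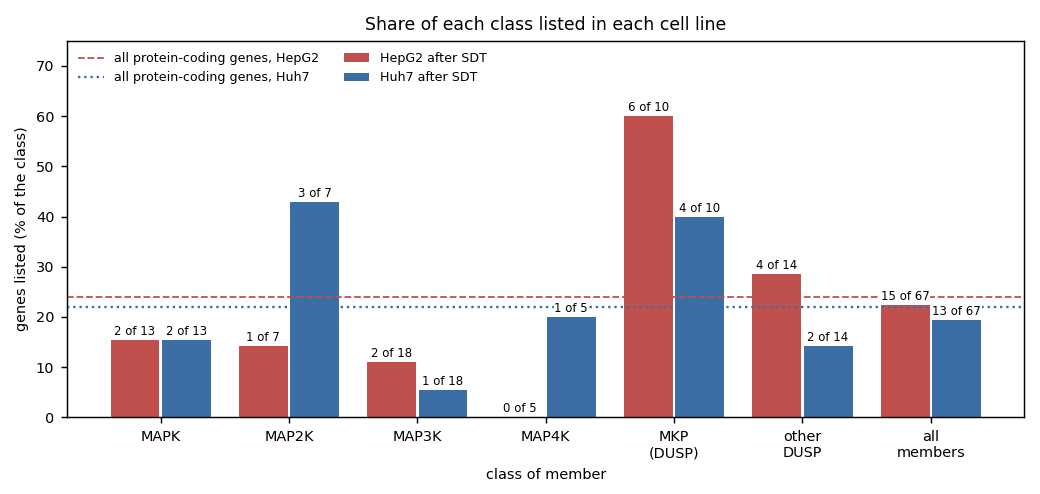
The bars give the percentage of each class of members listed in HepG2 (red) and Huh7 (blue) cells, with the number of genes above each bar, and the lines give the share of all protein-coding genes listed (23.9% dashed, 21.9% dotted). The MKP bars (6 of 10 and 4 of 10), the Huh7 MAP2K bar (3 of 7) and the HepG2 bar of the other DUSP genes (4 of 14) stand above the lines, whereas the MAPK and MAP3K bars stand below them.

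The promoters of DUSP1 and DUSP8, 2 of the MKP genes listed in both lines, are shown because each holds the full cyclic AMP response element (CRE, TGACGTCA), the site known to be bound by CREB and ATF proteins. The sequences are the 250 bases before the start of each gene in RefSeq (GRCh38.p14), 5′ to 3′ on the coding strand. DUSP1 lies on the minus strand at chr5:172771196-172771445, and DUSP8 on the minus strand at chr11:1572272-1572521. Capitals mark a CRE in both, and in DUSP1 also the TATA box letters TATAAA.
DUSP1: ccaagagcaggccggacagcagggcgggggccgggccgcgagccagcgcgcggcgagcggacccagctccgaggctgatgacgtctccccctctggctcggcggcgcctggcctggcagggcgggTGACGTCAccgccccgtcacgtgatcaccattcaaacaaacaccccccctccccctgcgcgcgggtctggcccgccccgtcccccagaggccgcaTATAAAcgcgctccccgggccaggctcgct
DUSP8: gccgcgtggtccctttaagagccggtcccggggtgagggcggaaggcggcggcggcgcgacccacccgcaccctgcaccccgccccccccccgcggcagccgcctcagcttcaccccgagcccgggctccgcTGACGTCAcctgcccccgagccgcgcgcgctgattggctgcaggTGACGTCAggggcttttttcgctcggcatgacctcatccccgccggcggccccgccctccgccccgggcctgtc
In DUSP1 the CRE begins at position -125 and the TATA box at -30, counted from the start of the gene. In DUSP8 the 2 CRE matches begin at -118 and -74. The matches do not overlap each other.

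Promoters of 58 of the 67 members were found in the RefSeq table, as windows from 250 bases before to 50 after the start. The listed members without a promoter there, and so not searched, were MAPK15, MAP3K1, DUSP5, DUSP13 and DUSP26. Both strands were searched. The CRE letters were found in 4 of the 58 (6.9%), DUSP1, DUSP8, MAPK10 and MAP3K13, and in 405 of 15301 promoters of all protein-coding genes (2.65%). The first 2 of these genes were listed in both lines and the last 2 in neither. The TATA letters (TATAAA) were found in DUSP1 alone, beside 9.59% of all promoters. The AP-1 letters (TGANTCA) were found in MAP2K3 alone, beside 5.74% of all promoters. The EGR1 letters (GCGNGGGCG) were found in 18 of 58 member promoters (31%) and 12.8% of all promoters, but in 2 of the 15 promoters of listed members, MAPK4 and MAPK11. A CArG box, the site of serum response factor, was found in 0 of the 58 and in 1.24% of all promoters. A match is a description of letters and not of binding.

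DUSP1 (ENSG00000120129), the nuclear phosphatase MKP-1 that prefers p38 and JNK and is induced by stress, was listed in both lines. It stood in 303 GO rows in each, including the response to oxidative stress, where it was the only member in either line. The number of rows, here and for the members below, is set by the GO annotation of a listed gene and is not a result of SDT. It was also among the members under apoptotic process in both. Among its smallest terms was protein tyrosine/threonine phosphatase activity, which has 4 background genes, 2 of them listed in HepG2 cells (DUSP1 and DUSP10) and 1 in Huh7 cells.

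DUSP5 (ENSG00000138166), a nuclear phosphatase of ERK, and DUSP9 (ENSG00000130829), a mainly cytoplasmic phosphatase of ERK also named MKP-4, were listed in both lines. They were recorded in 144 and 142 GO rows. Each stood under activation as well as inactivation of MAPK activity, so the GO rows carry no direction for them. DUSP8 (ENSG00000184545), which acts on JNK and p38, stood in 108 GO rows and in both lines.

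The 2 MKP genes listed only in HepG2 cells were DUSP6 (ENSG00000139318), the cytoplasmic ERK phosphatase MKP-3, and DUSP10 (ENSG00000143507), the JNK and p38 phosphatase MKP-5. Response to nitrosative stress was the smallest GO term of DUSP6, with 3 listed of 12 genes. Exons of DUSP6 lie for 40.5% of their bases under AC024909.2 on the opposite strand in GENCODE 29. The library kit keeps strand, but the authors' strand setting at counting is not given in the sources used here, so reads of the pair may not be separable. DUSP10 stood in 290 GO rows, among them negative regulation of respiratory burst, the burst of reactive oxygen species from phagocytes, with 2 listed of 4 genes. DUSP2, DUSP4, DUSP7 and DUSP16 were the MKP genes not listed in either line.

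Outside the MKP group, DUSP13 (ENSG00000079393), a locus that encodes phosphatases of testis and skeletal muscle, and DUSP19 (ENSG00000162999) were listed in both lines. DUSP19 was the single gene under JUN kinase phosphatase activity. It also stood under MAP-kinase scaffold activity, where HepG2 cells had 2 listed genes of 8 and Huh7 cells 4. DUSP11 (ENSG00000144048), which removes phosphates from the 5′ end of RNA, was listed only in HepG2 cells and was the 1 listed gene of 2 under polynucleotide 5'-phosphatase activity. DUSP26 (ENSG00000133878), a phosphatase expressed mainly in neural tissue, was also listed only in HepG2 cells. The phosphatases DUSP3, DUSP12, DUSP14, DUSP15, DUSP18, DUSP21, DUSP22, DUSP23, DUSP28 and DUSP29 were listed in neither line.

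Among the MAP kinases themselves, MAPK3 of the ERK arm and the 3 JNK genes (MAPK8, MAPK9 and MAPK10) were listed in neither line. Of the 4 p38 genes, MAPK11 (ENSG00000185386), which encodes p38 beta, was listed in HepG2 cells, whereas MAPK12, MAPK13 and MAPK14 were not listed. The atypical kinase MAPK4 (ENSG00000141639), also named ERK4, was listed in both lines. MAPK4 shares 4.38% of its exon bases with AC012433.1 on the same strand, and 96.6% of its stretches of 75 bases are found in no other gene. MAPK15 (ENSG00000181085), another atypical kinase also named ERK8, was listed in Huh7 cells, with regulation of COPII vesicle coating as its smallest term (2 listed of 7 genes). MAPK6, which encodes ERK3, and MAPK7, which encodes ERK5, were not listed. MAPK12 is the member whose reads are the hardest to assign, with 75% of its stretches unique and 29.3% of its exon bases under HDAC10.

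The MAP2K genes encode the direct activators of the MAP kinases. MAP2K7 (ENSG00000076984), an activator of JNK, was listed in HepG2 cells and was the 1 listed gene of 2 under JUN kinase kinase activity. MAP2K1 (ENSG00000169032), the ERK activator MEK1, was listed in Huh7 cells together with the p38 activators MAP2K3 (ENSG00000034152) and MAP2K6 (ENSG00000108984). MAP2K3 was the only member under p38MAPK cascade in either line. MAP2K6 had cellular response to sorbitol, an osmotic stress, as its smallest term (1 listed of 3 genes). MAP2K2, MAP2K4 and MAP2K5 were listed in neither line.

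At the head of the cascades, MAP3K10 (ENSG00000130758), a mixed lineage kinase that feeds the JNK arm, was listed in both lines. Under JUN kinase kinase kinase activity it was 1 of 2 listed genes in HepG2 cells and the 1 listed gene in Huh7 cells, of 8 genes. MAP3K1 (ENSG00000095015), which encodes MEKK1 of the JNK arm, was listed in HepG2 cells. MAP4K1 (ENSG00000104814), known as a kinase of blood cells, was listed in Huh7 cells as 1 of the 5 genes under MAP kinase kinase kinase kinase activity. MAP3K2 to MAP3K9, MAP3K11 to MAP3K15, MAP3K19 to MAP3K21 and MAP4K2 to MAP4K5 were not listed. These include MAP3K5 (ASK1), MAP3K7 (TAK1) and MAP3K8 (TPL2).

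The GO terms of the pathway were then counted over all genes, members or not. Over all 22148 background genes the listed shares were 21.6% for HepG2 and 19.7% for Huh7. The shares of this term and of the terms that follow stand beside these. Under MAPK cascade, 272 of 984 background genes (27.6%) stood on the HepG2 list and 260 (26.4%) on the Huh7 list, with 132 on both. Members made up 13 of the 272 and 12 of the 260. Positive regulation of MAPK cascade stood at 27.8% and 25.3% of 594 genes, and negative regulation at 29.3% and 24.5% of 184 genes. Under the negative term, all members were DUSP genes, 8 for HepG2 and 5 for Huh7.

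The terms of the stress-activated arms stood at 26.2% of 233 genes for JNK cascade and 24.5% of 49 for p38MAPK cascade in HepG2 cells. The same terms stood at 25.3% and 18.4% in Huh7 cells. The members under JNK cascade were MAP2K7, MAP3K10, DUSP9, DUSP10 and DUSP19 for HepG2, and MAP3K10, MAP4K1, DUSP9 and DUSP19 for Huh7.

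The terms of enzyme activity followed the tiers of the members. MAP kinase activity held 2 genes of 15 (13.3%) in each line, MAPK4 and MAPK11 in HepG2 cells and MAPK4 and MAPK15 in Huh7 cells. MAP kinase kinase activity held 2 of 16 (12.5%) in HepG2 cells, MAP2K7 and the kinase gene LRRK2. In Huh7 cells it held 4 of 16 (25%), namely MAP2K1, MAP2K3, MAP2K6 and the kinase gene PAK3. MAP kinase kinase kinase activity had the lowest shares of the terms counted, with 3 of 28 (10.7%) and 1 of 28 (3.57%). MAP kinase phosphatase activity held 6 genes of 18 (33.3%) for HepG2 and 4 (22.2%) for Huh7, and all of these were MKP members.

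Inactivation of MAPK activity held 10 listed genes of 30 (33.3%) for HepG2, the 6 MKP genes with CAV1, RGS3, RGS4 and SPRED2. In Huh7 cells it held 6 of 30 (20%), the 4 MKP genes with LAX1 and RGS3. The broader term protein dephosphorylation stood lower, at 52 of 272 (19.1%) and 42 of 272 (15.4%). DUSP genes made up 10 of the 52 and 6 of the 42. Response to oxidative stress held 123 of 441 genes (27.9%) and 100 of 441 (22.7%), beside 21.6% and 19.7% of all background genes. Apoptotic process held 550 of 2113 genes (26%) in HepG2 cells, with the members MAP2K7, MAP3K10, DUSP1 and DUSP6. In Huh7 cells it held 480 (22.7%), with MAP2K6, MAP3K10 and DUSP1.

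**Figure D3:**
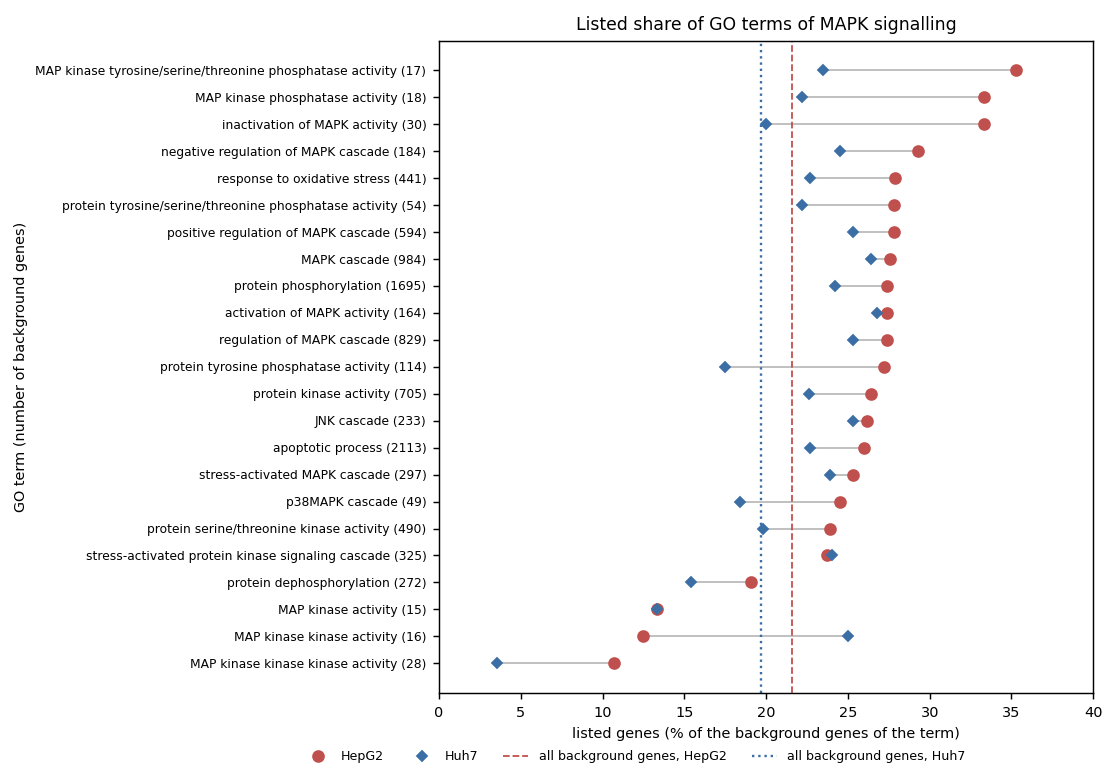
Each line is a GO term with the number of background genes in brackets; the horizontal axis is the percentage of these genes listed in HepG2 (red circles) and Huh7 (blue diamonds) cells, and the vertical lines are the shares over all background genes (21.6% and 19.7%). The MAP kinase phosphatase terms and inactivation of MAPK activity stand at the top for HepG2 cells (33.3% to 35.3%). For Huh7 cells these terms stand at 20% to 23.5%. The broader phosphatase terms and protein dephosphorylation stand lower for HepG2 cells (19.1% to 27.8%). The MAP kinase, MAP kinase kinase and MAP kinase kinase kinase activities stand at the bottom for HepG2 cells (10.7% to 13.3%).

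In the KEGG row MAPK signaling pathway, 81 of 257 background genes (31.5%) were listed after SDT of HepG2 cells, and 77 (30%) after SDT of Huh7 cells. Summed over all pathways, the listed shares were 26.3% in HepG2 cells and 25.8% in Huh7 cells. The row ranked 62 of 272 pathways with at least 10 background genes by share for HepG2, and 96 of 274 for Huh7. By number of listed genes it ranked 5 and 6. The members in the row were DUSP1, DUSP5, DUSP6, DUSP8, DUSP9, DUSP10, MAP2K7, MAP3K1 and MAPK11 in HepG2 cells, 9 of the 81 genes. In Huh7 cells they were DUSP1, DUSP5, DUSP8, DUSP9, MAP2K1, MAP2K3, MAP2K6 and MAP4K1, 8 of the 77. The row therefore consisted mostly of genes outside the MAP kinase and DUSP symbols, 72 in HepG2 and 69 in Huh7 cells.

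**Figure D4:**
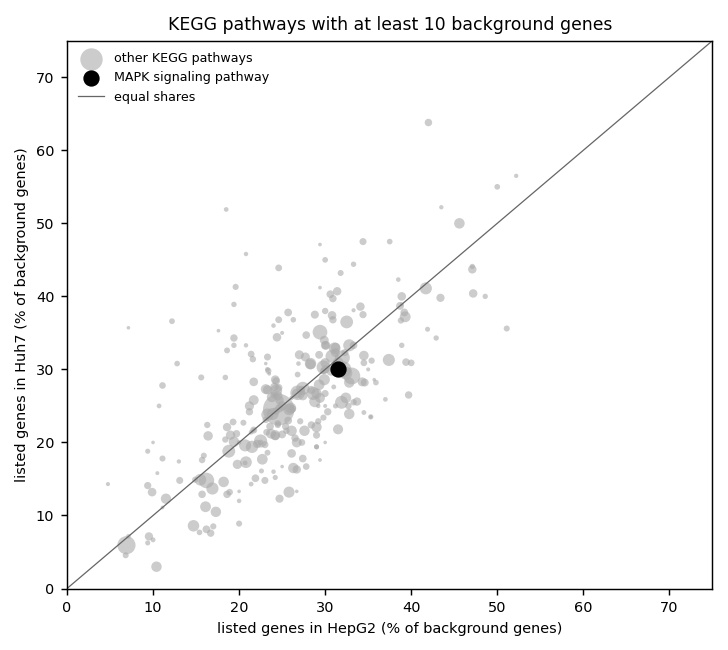
Each point is a KEGG pathway with at least 10 background genes, with the percentage of its genes listed in HepG2 cells on the horizontal axis and in Huh7 cells on the vertical axis; the point area grows with the number of background genes and the line marks equal shares. The MAPK signaling pathway (black) lies near the line at 31.5% and 30%, within the cloud of the other pathways.

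Of the genes in the row, 44 were listed in both lines (54.3% of the HepG2 row and 57.1% of the Huh7 row), 37 in HepG2 cells only and 33 in Huh7 cells only. Over all protein-coding genes, the lines shared 47.7% of the HepG2 list and 52.2% of the Huh7 list. Families were read from the row after its genes had been seen, and are given beside the number of protein-coding genes with such symbols. Voltage-gated calcium channels admit calcium that can activate RAS exchange factors. Genes of their pore-forming and auxiliary subunits gave 12 of 26 genes (46.2%) to the HepG2 row and 11 (42.3%) to the Huh7 row. Shared were 8 (CACNA1B, CACNA1C, CACNA1E, CACNA1G, CACNA2D1, CACNA2D2, CACNB2 and CACNB4). Fibroblast growth factors gave 12 (54.5%) and 9 (40.9%) of 22 genes, with FGF7, FGF10, FGF12, FGF18 and FGF21 shared. The exchange factors with RASGRP or RASGRF symbols gave 5 (83.3%) and 1 (16.7%) of 6 genes, with RASGRP3 shared. The families picked in this way are among those with many genes in the row, so their shares cannot be read against the 26.3% and 25.8% over all pathways. HSPA1A, HSPA1B and HSPA6, inducible heat shock proteins among 14 HSPA genes, were in both rows; HSPA1A and HSPA1B are near-identical copies, so their reads are uncertain.

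Few members carried most of the pathway entries. How many pathways a listed gene stands in is set by its KEGG annotation and is not a result of SDT. MAPK11 stood in 35 of the 42 KEGG pathways that held any member in HepG2 cells (83.3%), and it was the only member in 23 of them, Rap1 signaling and dopaminergic synapse being examples of its pathways. MAP2K1 stood in 58 of the 62 such pathways of Huh7 cells (93.5%) and was the only member in 48. The MKP genes stood in 1 or 2 pathways each. MAPK4, MAPK15, MAP3K10, DUSP11, DUSP13, DUSP19 and DUSP26 stood in no KEGG row.

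The genes around the cascades were counted from 9 lists of 134 genes in all. Of these, the HepG2 list held 45 (33.6%), the Huh7 list 51 (38.1%) and both lists 27 (20.1%), beside 23.9%, 21.9% and 11.4% of all protein-coding genes. The 9 lists were chosen with earlier results of these data known. Their shares, here and below, therefore cannot be weighed against those of all genes. The transcription factor targets had the highest shares, 13 of 25 (52%) for HepG2 and 15 of 25 (60%) for Huh7. Of the 25, 11 (44%) were listed in both: the AP-1 subunits FOS, FOSB, FOSL1, JUN, JUNB and JUND, the immediate early factors EGR1 and EGR3, the stress factors ATF3 and DDIT3, and ETV5. MYC and IER3 were listed only in HepG2 cells, and EGR2, ELK3, MEF2C and MEF2D only in Huh7 cells.

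Upstream, ligands of receptor tyrosine kinases gave 7 of 15 (46.7%) and 8 of 15 (53.3%), with BTC, FGF21, HBEGF and VEGFA in both lines. Receptors gave 6 of 16 (37.5%) in each line, with ERBB3, PDGFRB and TGFBR2 in both. The list of RAS, RAF and their exchange or GTPase-activating factors gave 6 of 21 (28.6%) and 3 of 21 (14.3%). Its genes shared by the lines were MRAS, RASGRP3 and RRAS2. Scaffolds and adaptors gave 4 of 12 (33.3%) and 5 of 12 (41.7%), with KSR2, a scaffold of the ERK arm, and SPAG9, a scaffold of the JNK arm, in both.

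The list labelled feedback inhibitors gave 6 of 13 (46.2%) in each line. It holds SPRY, SPRED and GADD45 genes, ERRFI1, PEBP1 and RASSF1, and not all of these are feedback inhibitors. GADD45A and SPRED3 were shared, 15.4% of the list beside 11.4% of all protein-coding genes. ERRFI1, GADD45B, SPRED2 and SPRY4 were listed in HepG2 cells, and GADD45G, PEBP1, SPRY1 and SPRY2 in Huh7 cells. Kinases activated by MAP kinases, with NLK, gave 2 of 12 (16.7%) and 4 of 12 (33.3%), and MKNK2, which phosphorylates the translation factor eIF4E, was in both. Other kinases of the MAP3K and MAP4K tiers gave 1 of 10 (10%) and 2 of 10 (20%), with TNIK in both. The list of phosphatases outside the DUSP symbols, which includes the phosphatase-like gene STYX, gave 0 of 10 in HepG2 cells. In Huh7 cells it gave 2 of 10 (20%), PPP5C and STYX.

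**Figure D5:**
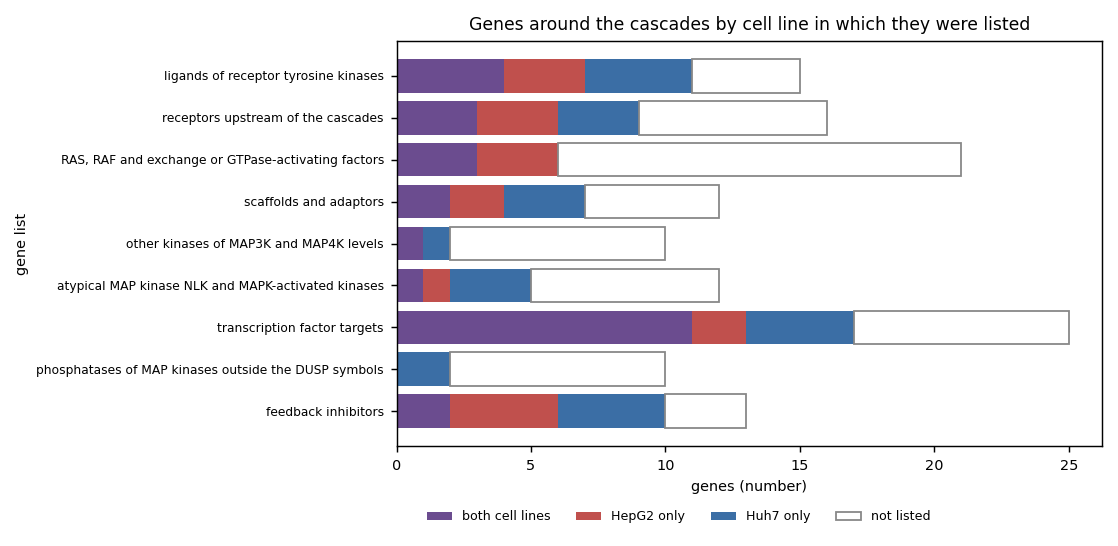
Each bar is a list of genes around the cascades, and its length is the number of genes in the list, divided into genes listed in both lines (purple), in HepG2 cells only (red), in Huh7 cells only (blue) and in neither (open). The transcription factor targets have the longest purple part, 11 of 25 genes, and the list of phosphatases outside the DUSP symbols has none.

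At the median, the listed members were shorter than those not listed. The median of the longest transcript was 2676 bases for the 15 members listed in HepG2 cells and 4640 bases for the other 52, and it was 2700 and 4558 bases in Huh7 cells. Over all protein-coding genes the medians went the other way by a small amount, 3332 bases for genes listed and 3105 for genes not listed in HepG2 cells, and 3269 and 3120 in Huh7 cells. These medians pool the classes. DUSP genes were 10 of the 15 members listed in HepG2 cells and 6 of the 13 listed in Huh7 cells. The longest transcripts of DUSP genes are mostly shorter than those of the kinases. The medians therefore do not separate length from class. The part of length in the calls was not tested. Among the listed members, at least 96.6% of the stretches of 75 bases were unique to the gene, and only MAPK4 lay partly under another gene on its own strand.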

How the data were processed

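Total RNA of the 4 groups was depleted of ribosomal RNA and sequenced as directional libraries, 1 per group. The submitters' processing notes name Bowtie2 2.2.8, HISAT2, StringTie 1.3.1 and Cuffdiff 2.1.1. The genome build and annotation are not given in the sources used here. An adjusted p-value below 0.05 made an mRNA differentially expressed for the authors, by Cuffdiff in the paper's methods and by edgeR in its results. The authors tested GO terms with GOseq and KEGG pathways with KOBAS. The 4 deposited tables hold, for each row, numbers of listed and background genes and Ensembl identifiers. Their p-value columns hold the authors' own findings and were not used. No column belonged to a sample that could not be matched, and the tables give no depth for a library.

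The list of each comparison was the union of identifiers over all GO rows. Symbols came from the supplied gene table, and gene types, transcript lengths and overlaps from GENCODE 29, by gene identifier. Counts and shares were computed in Python 3.11.15 and plotted with matplotlib 3.10.9. The counting was tested on simulated tables. Because the tables hold no value for a single library, no test was run. Every member is named except 1 that is not reported here, and other genes come from 9 fixed lists, apart from the other genes under small GO terms and the families in the KEGG row, which were named after they had been seen. The members and lists were chosen with earlier results of these data known. Protein sequences were not used here.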

Additional observations from a re-analysis of the deposited data

How the results depend on the processing

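Counted from KEGG rows only, the members listed numbered 9 for HepG2, 8 for Huh7 and 4 for both lines, because MAPK4, MAPK15, MAP3K10, DUSP11, DUSP13, DUSP19 and DUSP26 stand in no KEGG row. The counts of 15, 13 and 8 were the same, with the same genes, when KEGG rows were added to the GO rows, when molecular function or biological process rows were used alone, and when older symbols and synonyms were admitted. The last setting raised the members to 74 by adding MINK1, PTPMT1, STYXL1, STYXL2, TAOK1, TAOK2 and TAOK3, none of them listed. GENCODE 29 symbols, an alternative chosen after seeing the data, exchanged DUSP29 for DUSP27 and left the counts as they were. All of these settings read the same called genes, so equal counts say nothing about how firm the calls are. All genes of the MAPK signaling pathway row were also in the GO lists, and without the members it held 72 and 69 genes. No paired analysis was possible because the tables hold no value for a single library. Leaving out a library was not possible for the same reason. The tables do not give the depth behind the calls, so a gene that was not listed cannot be read as unchanged.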
